A study of Sus scrofa with 3 samples.

Results

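Genes of triglyceride breakdown and its adrenergic control were followed in visceral adipose tissue of castrated and testosterone-treated pigs. The genes were chosen by name and gene type (mRNA): the lipases PNPLA2, LIPE and MGLL, the lipase cofactor ABHD5, the lipase inhibitor G0S2, the beta-adrenergic receptors ADRB1 and ADRB3, the phosphodiesterase PDE3B and the protein kinase A subunit PRKAR2B. Of these 9 genes, 8 were found among the 22826 mRNA genes with values in all libraries. G0S2 is listed as LOC100624161 and was matched by its gene ID, and PRKAR2B matched no entry and was not analysed here.

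RNA-Seq was done on retroperitoneal fat of male Chinese Wuzhishan miniature pigs that were obtained at 6 to 7 months of age. After some weeks on a standard diet the pigs had surgery, and then ate an HFC diet (rich in fat and cholesterol) for 12 weeks. IM pigs were intact and had sham skin incisions, CM pigs were castrated, and CMT pigs were castrated and injected with testosterone propionate at 10 mg/kg body weight each week. RNA was pooled within a group, from 4 to 6 pigs by the sample labels and 4 pigs by the study's methods, and each group is 1 library. No difference between these libraries therefore has a replicate check in the RNA-Seq data, and the group, its pool of pigs and its library cannot be told apart.

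Fat cells store triglyceride in a lipid droplet and release it as fatty acids and glycerol through consecutive enzymes. PNPLA2 (adipose triglyceride lipase) removes the first fatty acid, LIPE (hormone-sensitive lipase) acts mainly on the diglyceride, and MGLL (monoglyceride lipase) releases the last fatty acid. ABHD5 (CGI-58) activates PNPLA2, and G0S2 inhibits it. Catecholamines switch the pathway on through beta receptors, cyclic AMP (cAMP) and protein kinase A, while insulin restrains it in part through PDE3B, which degrades cAMP.

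Levels are given in UQRPKM, meaning reads per kilobase of gene divided by the library's upper quartile. Reads behind the values were recovered from their steps and came to between 15106608 and 16611931 per library over all genes. Log2 ratios were taken without a pseudocount, and their 95% intervals come from the recovered reads by the Clopper-Pearson method. Since amplified reads can copy 1 molecule, the intervals hold counting error only, without differences between pigs or libraries. A difference was counted as past the limit from 1.5-fold upwards where each library had at least 1 UQRPKM, without a test.

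Fat cell markers were high in every library, with ADIPOQ (adiponectin) at 74928, 69193 and 63873 UQRPKM in IM, CM and CMT. The summed level of the 12 adipocyte markers listed was 159284, 153594 and 126880 UQRPKM, respectively, with CIDEA at 0 throughout, and the median log2 ratio of the 11 others was 0.01 for CM against IM and -0.30 for CMT against CM. Markers of other tissues stood out in the libraries of both castrated groups. Of the 14 skeletal muscle markers, 9 were above 0 in at least 1 library, and the list summed to 82.5, 68.3 and 6145 UQRPKM in IM, CM and CMT, led by ACTA1 and MYLPF. All 12 liver markers were above 0 in CM, where ALB (albumin) had 2910 UQRPKM against 2.61 in IM and 4.00 in CMT. The summed level of the liver list was 3310, 11898 and 3633 UQRPKM in IM, CM and CMT, of which RBP4, a gene that fat also expresses, made up 3291, 4246 and 3611.

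**Figure D1:**
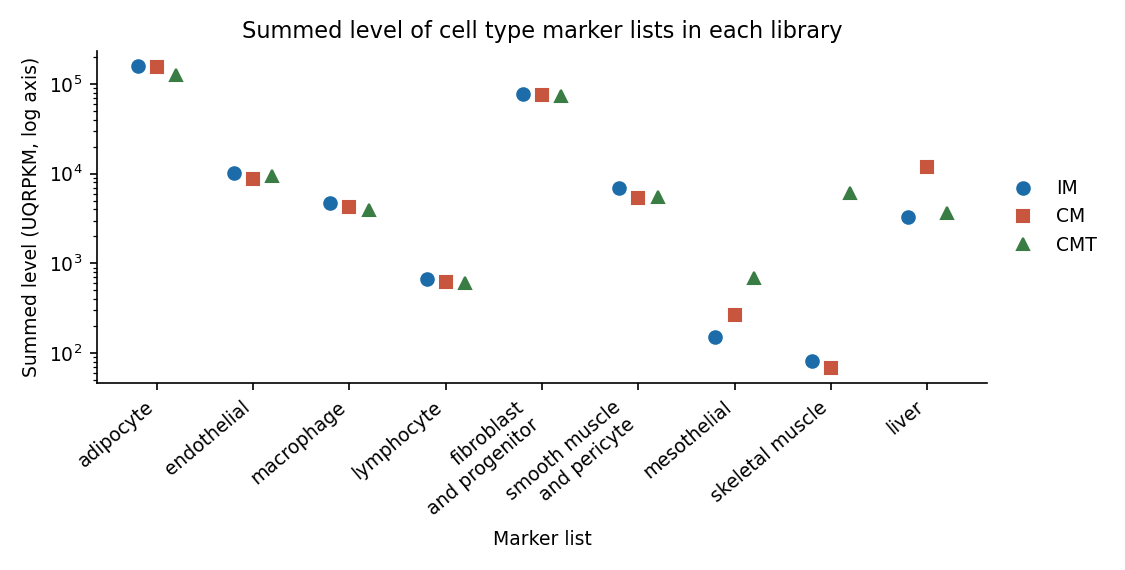
Summed level of each cell type marker list (y axis, UQRPKM on a log scale) in the IM, CM and CMT libraries, 1 point per library. Adipocyte markers sum to 126880 UQRPKM or more in every library, skeletal muscle markers stand out in CMT at 6145, and liver markers in CM at 11898.

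Mesothelial markers were low and summed to 153, 267 and 689 UQRPKM in IM, CM and CMT with KRT8 and KRT19 highest. Endothelial markers summed to 10098, 8746 and 9449 UQRPKM and lymphocyte markers to 678, 629 and 610. Macrophage markers summed to 4778, 4299 and 3987 UQRPKM, a sum carried mostly by C1QA at 2833, 2100 and 1993. Most of that list went the other way from its sum in CM, with 7 of the 10 markers counted above their IM level and a median log2 ratio of 0.20, and the markers past the limit, LOC100520753 and EMR1 (named after their values were seen), had 2.49 and 2.05 times their IM level. Fibroblast and progenitor markers summed to 77413, 74683 and 73018, and smooth muscle and pericyte markers to 6962, 5430 and 5566. Of the last sums DES, named after its values were seen, made up 52.9, 33.0 and 459 UQRPKM in IM, CM and CMT. Less RNA per cell and fewer cells of a type cannot be told apart in such tissue, and the part of these lists in the values below was not tested except where a scaling to adipocyte markers is given.

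The lipases were among the most abundant messages of the tissue. LIPE had 12618, 11667 and 8438 UQRPKM in IM, CM and CMT, at ranks 79, 88 and 125 among the mRNA genes. PNPLA2 had 10283, 7431 and 7827 UQRPKM, at ranks 103, 148 and 134. MGLL had 8284, 6462 and 6604 UQRPKM, at ranks 132, 166 and 154. Each of these levels is carried by many reads, from 15416 for PNPLA2 in CM to 65467 for LIPE in IM, so their counting intervals are narrow. The choice of scaling can move a log2 ratio by more than such an interval. For PNPLA2 in CMT versus CM it was 0.07 as reported below and 0.15 under scaling by total UQRPKM.

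The control genes lay far lower. ABHD5 had 976, 556 and 806 UQRPKM in IM, CM and CMT, and G0S2 had 544, 472 and 360. PDE3B had 248, 270 and 235 UQRPKM, and ADRB1 had 208, 200.4 and 188. The order of levels was LIPE, PNPLA2, MGLL, ABHD5, G0S2, PDE3B and ADRB1 in all 3 libraries. For each pair of neighbours in this order the 95% counting interval of their ratio lay above 1. The narrowest steps were LIPE over PNPLA2 in CMT, at 1.08 (95% interval 1.06 to 1.10), and PNPLA2 over MGLL in CM, at 1.15 (1.13 to 1.17). Levels between genes depend on the gene lengths of the annotation, which came out at 882 bases for G0S2 up to 4298 for PDE3B when recovered with the reads.

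**Figure D2:**
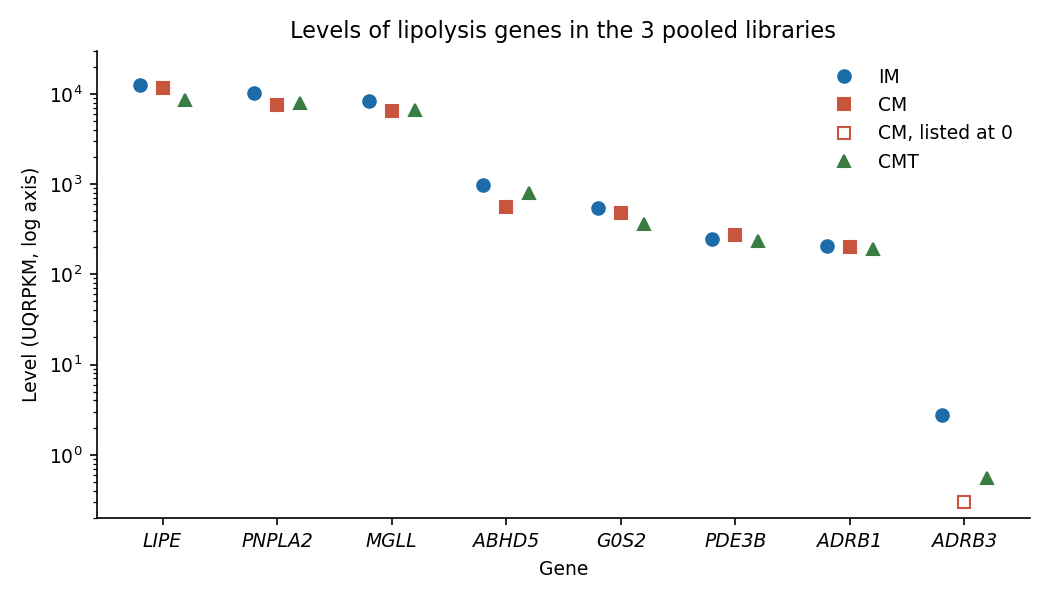
Level of each gene (y axis, UQRPKM on a log scale) in the IM, CM and CMT libraries, 1 point per library, with an open square where a gene is listed at 0. The lipases LIPE, PNPLA2 and MGLL lie between 6462 and 12618 UQRPKM, ABHD5 and G0S2 between 360 and 976, and ADRB3 at or under 2.74.

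ADRB3, the receptor that drives lipolysis in rodent fat, was close to undetected. It had 5 reads in IM (2.74 UQRPKM), 0 in CM and 1 in CMT (0.560 UQRPKM), and 3 reads on this gene would correspond to 1.73 UQRPKM in CM. The counting intervals of its log2 ratio ran up to 0.20 in CM versus IM and from -7.86 to 0.87 in CMT versus IM, so no difference was detectable at this depth. ADRB1 had 75.8 times the level of ADRB3 in IM (95% interval 32.2 to 235).

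The question of CM versus IM is what castration goes with in this pathway under the HFC diet. ABHD5 was the gene with the largest difference, at 0.570 times its IM level in CM. Its log2 ratio was -0.81 (95% interval -0.92 to -0.70) from 1932 reads in IM and 1049 in CM. The study also measured ABHD5 by qRT-PCR, with the primers below (5′ to 3′), which are shown because ABHD5 carries the largest difference, with no part set in capitals.
ABHD5, first primer: tgttcagactcccagtggtg
ABHD5, second primer: accgaaactggaatgtcagg
No qRT-PCR values were analysed here.

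The enzyme that ABHD5 activates was also lower in CM, but less so. PNPLA2 had a log2 ratio of -0.47 (-0.50 to -0.44) in CM versus IM and MGLL had -0.36 (-0.38 to -0.34). LIPE was closest to its IM level among the lipases, with a log2 ratio of -0.11 (-0.13 to -0.10). G0S2, the inhibitor, had a log2 ratio of -0.21 (-0.37 to -0.05).

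PDE3B had the only positive log2 ratio, 0.12 (0.02 to 0.22), and ADRB1 had -0.05 (-0.26 to 0.15), an interval that includes no change. Under scaling by recovered reads, by the median of ratios or by a trimmed mean, the ratio of ADRB1 was between 0.0061 and 0.013, so its direction is not set.

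In all, 1 of the 7 genes that reached 1 UQRPKM in each library was past 1.5-fold in CM versus IM, ABHD5, against 18.8% of the 14123 mRNA genes compared, 8.38% higher and 10.4% lower. Among the 5411 mRNA genes that reached 100 UQRPKM in each library, a minimum chosen after seeing the data, the share was 4.12%. At a fold of 2 no gene of the 7 was past the limit in any comparison, against 8.06% of mRNA genes for CM to IM, 8.69% for CMT to CM and 8.21% for CMT to IM. A count of 1 in 7 genes is too small to set the genes apart as a group. The median log2 ratio of the 7 genes was -0.21, beside -0.06 over all mRNA genes compared.

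**Figure D3:**
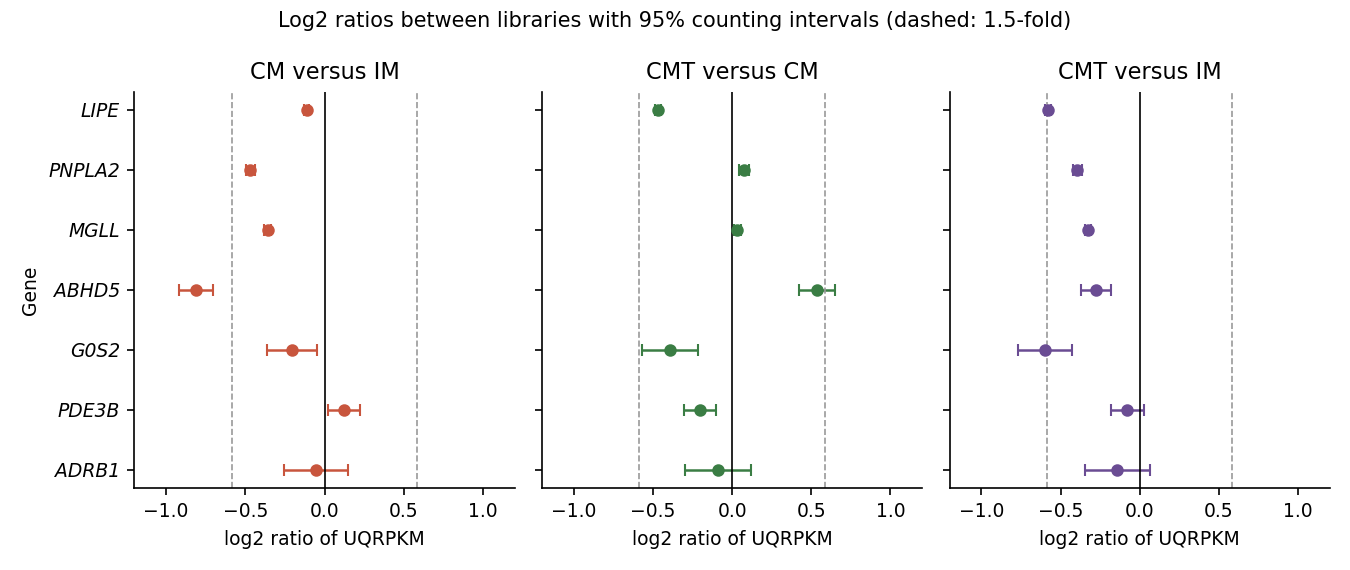
Log2 ratio of UQRPKM (x axis) of 7 genes in each of the 3 comparisons of libraries, with 95% counting intervals as bars and dashed lines at 1.5-fold. ABHD5 lies at -0.81 for CM against IM and 0.54 for CMT against CM, while LIPE lies at -0.11 and -0.47.

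CMT versus CM addresses what testosterone replacement goes with after castration, and it shares the CM library with the comparison above. ABHD5 was higher in CMT, at 1.45 times its CM level, with a log2 ratio of 0.54 (0.42 to 0.65). This lies just under the 1.5-fold limit, and scaling by total UQRPKM, by recovered reads or by adipocyte markers put it past the limit. ABHD5 in CMT stayed between its levels in CM and IM.

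The lipases separated in this comparison. PNPLA2 and MGLL lay within a few percent of CM, with log2 ratios of 0.07 (0.04 to 0.11) and 0.03 (0.01 to 0.05). LIPE was lower in CMT, with a log2 ratio of -0.47 (-0.49 to -0.45), and so was G0S2, with -0.39 (-0.57 to -0.21). PDE3B had a log2 ratio of -0.20 (-0.30 to -0.10), and ADRB1 had -0.09 (-0.30 to 0.12).

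None of the 7 genes was past 1.5-fold in CMT versus CM, against 19.5% of the 14098 mRNA genes compared (9.53% higher, 9.97% lower) and 5.24% of those with at least 100 UQRPKM in both. Their median log2 ratio was -0.09, beside -0.02 over all mRNA genes compared. Adipocyte markers were themselves lower in CMT, with a median log2 ratio of -0.30. Set against those markers, PNPLA2 had a log2 ratio of 0.38, MGLL 0.34 and ABHD5 0.84, all further above CM. That scaling raises all genes alike, and the median over all mRNA genes compared was 0.28 under it, near the values of PNPLA2 and MGLL. LIPE had -0.16 and G0S2 -0.09 on that scale, and PDE3B and ADRB1 turned to 0.10 and 0.22.

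CMT versus IM asks how far treated castrates differ from intact pigs. G0S2 was past the limit, at 0.661 times its IM level, with a log2 ratio of -0.60 (-0.77 to -0.43) from 715 reads in IM and 463 in CMT. LIPE lay just inside the limit at 0.669 times its IM level, with -0.58 (-0.60 to -0.56). PNPLA2 had -0.39 (-0.42 to -0.36), MGLL -0.33 (-0.35 to -0.31) and ABHD5 -0.28 (-0.37 to -0.18), while the intervals of PDE3B and ADRB1 included 0 and their direction turned under some scalings.

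The interval of G0S2 crosses the limit, and each of the 5 other scalings left it within 1.5-fold. In CMT versus IM 1 of the 7 genes was past the limit, against 20.7% of the 14151 mRNA genes compared (8.81% higher, 11.9% lower) and 6.55% of those with at least 100 UQRPKM in both. The median log2 ratio of the 7 genes was -0.33, beside -0.08 over all mRNA genes compared and -0.26 over the adipocyte markers. Set against the adipocyte markers, G0S2 had a log2 ratio of -0.33 and LIPE -0.32, while PNPLA2 had -0.13, MGLL -0.06 and ABHD5 -0.01. PDE3B and ADRB1 turned to 0.19 and 0.12 on that scale, where the median over all mRNA genes compared was 0.19.

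Ratios between genes within a library do not depend on how the library was scaled. ABHD5 had 9.49% of the level of PNPLA2 in IM (95% interval 9.05 to 9.94), 7.48% in CM (7.02 to 7.96) and 10.3% in CMT (9.77 to 10.8). The activator was thus lowest against its lipase in CM, with a log2 difference of -0.34 (-0.46 to -0.23) from IM. The difference of CMT from CM was 0.46 (0.34 to 0.58).

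Relative to PNPLA2, G0S2 ran the other way. Its own level was lower in CM than in IM, with a log2 ratio of -0.21, but PNPLA2 was lower by more, with -0.47. G0S2 had 5.29% of the level of PNPLA2 in IM (4.90 to 5.70), 6.35% in CM (5.84 to 6.89) and 4.59% in CMT (4.18 to 5.04). The inhibitor was highest against the lipase in CM, with a log2 difference of 0.26 (0.10 to 0.42) from IM, and CMT differed from CM by -0.47 (-0.65 to -0.29).

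The balance of the lipases also moved. LIPE had 1.23 times the level of PNPLA2 in IM, 1.57 times in CM and 1.08 times in CMT. MGLL had 65.6%, 55.4% and 78.3% of the level of LIPE in IM, CM and CMT. Of the summed level of the lipases, LIPE took 40.5%, 45.6% and 36.9% in IM, CM and CMT, while the sum itself was 31186, 25561 and 22869 UQRPKM. LIPE therefore held its largest share in CM and its smallest in CMT, and for PNPLA2 the order was the reverse, with 33.0%, 29.1% and 34.2%.

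**Figure D4:**
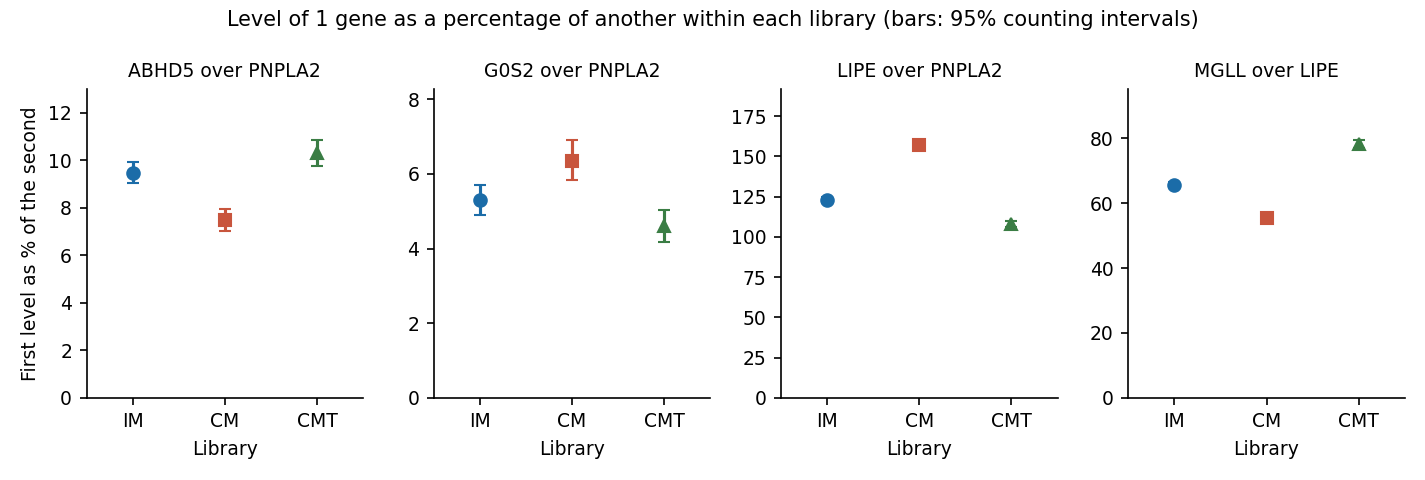
Level of 1 gene as a percentage of another (y axis, from 0) within the IM, CM and CMT libraries, with 95% counting intervals as bars. ABHD5 over PNPLA2 is lowest in CM at 7.48%, and G0S2 over PNPLA2 and LIPE over PNPLA2 are highest there at 6.35% and 157%.

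Genes around these were taken from 6 lists that hold 81 other genes of the pathway, of which 76 were listed and 9 were at 0 in all libraries. The muscle genes CKM and MB are listed at 0 in CMT, where ACTA1 had 3589 UQRPKM, so a listed 0 need not mean that a gene was silent. In CM versus IM 10 of the 65 genes counted were past 1.5-fold, 3 higher and 7 lower, a share of 15.4% beside the background of 18.8%. CMT versus CM had 6 higher and 9 lower of 64 genes, a share of 23.4% beside 19.5%, and CMT versus IM had 4 higher and 8 lower of 65, a share of 18.5% beside 20.7%. Scaling to adipocyte markers turned the split to 11 higher and 5 lower for CMT against CM, and to 4 and 3 for CMT against IM. That scaling moves all genes alike, and under it 20.8% of all mRNA genes were higher and 5.37% lower for CMT against CM, and 17.2% higher and 5.99% lower for CMT against IM. Over the genes counted, the median log2 ratio was -0.06, -0.07 and -0.16 in these comparisons, beside -0.06, -0.02 and -0.08 over all mRNA genes.

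Among the receptors that restrain lipolysis and their G proteins, 9 of 13 genes counted were within the limit for CM against IM, and those past it did not share a direction across the comparisons. HCAR1 (GPR81), the lactate receptor, had 884, 492 and 854 UQRPKM in IM, CM and CMT, with log2 ratios of -0.84 (-0.98 to -0.71) for CM against IM and 0.79 (0.66 to 0.93) for CMT against CM. PTGER3, a prostaglandin E2 receptor, had 225, 117 and 172 UQRPKM, with log2 ratios of -0.94 (-1.11 to -0.77) and 0.55 (0.38 to 0.73). Both were lowest in CM, as ABHD5 was. ADORA1, the adenosine A1 receptor, was highest in CM, with 1043, 1336 and 755 UQRPKM and a log2 ratio of -0.82 (-0.89 to -0.75) in CMT versus CM. On scaling to adipocyte markers ADORA1 was within the limit in that comparison, while HCAR1 stayed past it and PTGER3 moved past it. Of the 13 genes of this list counted in CM versus IM, 4 were lower and 0 higher, beside 10.4% and 8.38% of all mRNA genes. Of the 12 counted in the other comparisons, 2 were higher and 1 lower in CMT than in CM, and 1 was lower in CMT than in IM, so that 25.0% and 8.33% of them were past the limit beside 19.5% and 20.7% of all mRNA genes. The genes not yet named among these are NPY1R, NPR3 and FFAR2, which have at most 62 reads in any library and are named after their values were seen.

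Among the stimulatory receptors, NPR1, the natriuretic peptide receptor that drives lipolysis through cyclic GMP, was the most abundant of its list, with 3565, 3180 and 3039 UQRPKM. Of the 5 genes counted in this list, 0 were past the limit for CM against IM, 1 was lower in CMT than in CM and 2 were lower in CMT than in IM, beside 10.4%, 9.97% and 11.9% of all mRNA genes lower. MC5R, a melanocortin receptor, was lower in CMT than in IM, with a log2 ratio of -0.77 (-1.35 to -0.20), and MC2R, the other gene past the limit, had at most 20 reads in any library.

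Below the receptors, GNAS, the stimulatory G protein subunit, stood at 16644, 15171 and 15526 UQRPKM. Among the adenylyl cyclases, which make cAMP, ADCY4 was lower in CMT than in IM, with a log2 ratio of -0.74 (-0.86 to -0.63), and ADCY9 was lower in CM than in IM, with -0.70 (-1.02 to -0.38). ADCY2 had 5.59, 9.62 and 24.0 UQRPKM and a log2 ratio of 2.10 (1.46 to 2.79) in CMT versus IM. Of the 7 or 8 genes of this list counted, 1 was higher and 1 lower for CM against IM, 1 higher and 0 lower for CMT against CM, and 2 higher and 1 lower for CMT against IM, where ADCY1 is the other higher gene with at most 39 reads. Of all mRNA genes, 8.38%, 9.53% and 8.81% were higher and 10.4%, 9.97% and 11.9% lower in these comparisons, and with so few genes counted the list cannot be set apart from them.

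The other phosphodiesterases share with PDE3B the removal of cyclic nucleotides. Of 14 genes counted, 12 were within the limit for CM against IM and 11 in each of the other comparisons, so that 14.3%, 21.4% and 21.4% were past it, near the 18.8%, 19.5% and 20.7% of all mRNA genes. PDE4B was lower in CM than in IM, with a log2 ratio of -0.59 (-0.92 to -0.26), and in CMT it stood at -0.66 from IM. PDE1B was lower in CMT than in IM, with -0.82 (-1.13 to -0.51), and PDE7B was higher in CMT than in CM, with 0.71 (0.26 to 1.16). PDE1C and PDE4C, also past the limit in some comparisons, had at most 43 reads in any library.

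In the list of protein kinases, their inhibitors and anchors, 10 of 12 genes were within the limit in each comparison, and the 16.7% past it is near the shares of all mRNA genes. PRKACA, the main catalytic subunit of protein kinase A, had 676, 546 and 544 UQRPKM. PKIB, an inhibitor of that kinase, varied most, with 102, 20 and 201 reads or 45.9, 9.45 and 92.4 UQRPKM in the same order. CM lay -2.28 (-3.05 to -1.58) from IM on the log2 scale, and CMT lay 3.29 (2.62 to 4.03) from CM. PRKACB, another catalytic subunit, had 25.6, 42.5 and 57.7 UQRPKM from only 24, 38 and 53 reads, and its log2 ratio in CM versus IM, 0.73, had an interval that includes 0 (-0.04 to 1.53), while that in CMT versus IM was 1.17 (0.45 to 1.93).

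Among the lipase partners and other lipases, 0 of 14 genes were past the limit for CM against IM, beside 18.8% of all mRNA genes. For CMT against IM 1 of 14 was past it, a share of 7.14% beside 20.7%. For CMT against CM, 5 were lower and 0 higher, beside a background of 9.97% in the lower direction. The median log2 ratio of the 14 was -0.35 in CMT versus CM, beside -0.30 for the adipocyte markers. PLIN1 and CIDEC belong to both lists, so these medians are not independent. HILPDA, which inhibits PNPLA2 as G0S2 does, had 412, 461 and 288 UQRPKM and a log2 ratio of -0.68 (-0.86 to -0.51) in CMT versus CM. AQP7, the channel that lets glycerol out of fat cells, had 2193, 2279 and 1481 UQRPKM, with -0.62 (-0.70 to -0.55). PLIN5, a lipid droplet protein that binds PNPLA2 and ABHD5, had 78.7, 102 and 53.1 UQRPKM, with -0.94 (-1.29 to -0.59).

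ABHD6, a monoglyceride lipase, had 201, 246 and 151 UQRPKM, with -0.70 (-0.88 to -0.53) in CMT versus CM. CES1, a carboxylesterase, had 1697, 2125 and 901 UQRPKM, with -1.24 (-1.36 to -1.11) against CM and -0.91 (-1.04 to -0.79) against IM for CMT, although reads of related carboxylesterases may not be fully separated. PLIN1, the droplet coat protein that holds ABHD5 at rest, had 18396, 18587 and 12504 UQRPKM and stayed within the limit. These genes were lowest in CMT, the library in which adipocyte markers were also lowest. On scaling to those markers CES1 and PLIN5 alone of the 5 stayed past the limit in CMT versus CM. Liver markers stood highest in CM, as each of these 5 genes did, and scaling to adipocyte markers does not adjust for liver RNA. The part of liver RNA in the levels of the 5 genes, CES1 and PLIN5 included, was not tested.

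**Figure D5:**
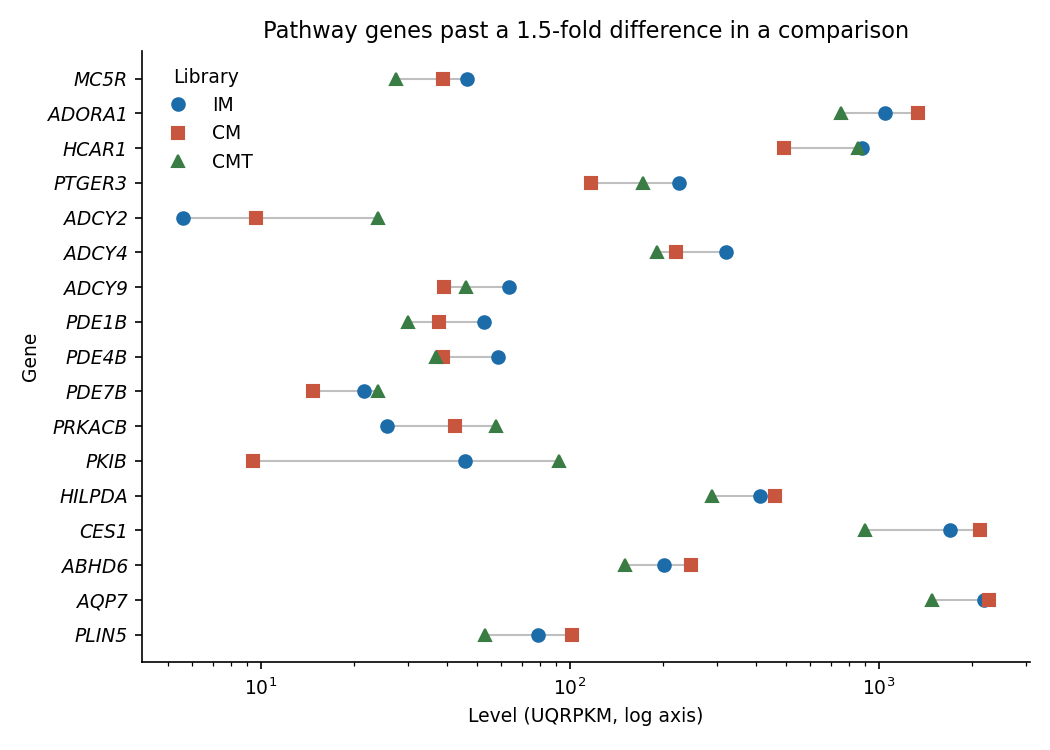
Level (x axis, UQRPKM on a log scale) of the pathway genes past 1.5-fold in a comparison and with at least 20 UQRPKM in one of its libraries, in IM, CM and CMT, 1 point per library. HCAR1, PTGER3 and PKIB are lowest in CM, at 492, 117 and 9.45 UQRPKM, and ADORA1, HILPDA, CES1, ABHD6, AQP7 and PLIN5 are lowest in CMT.

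Genes with a pattern most like that of ABHD5 and G0S2 were sought by the distance between their log2 ratios of CM to IM and of CMT to CM, over the 3 libraries. The search covered mRNA genes that reached 100 UQRPKM in every library and whose symbol does not start with LOC. Among 4411 such genes, CREB3L1, LPCAT1 and SULF1 lay closest to ABHD5, at distances of 0.03, 0.05 and 0.08. CREB3L1 had 371, 210 and 311 UQRPKM in IM, CM and CMT. For G0S2, with 4412 such genes compared, the closest were LPIN3, CCND3 and SPNS2, at distances of 0.0018, 0.013 and 0.022. With 3 libraries such likeness is a description of these values alone.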

How the data were processed

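Ion Proton reads from 3 pooled libraries were mapped by the authors with MapSplice to Sscrofa 10.2. The deposited values are RPKM scaled to the upper quartile of each library (UQRPKM), 1 library per group. The read counter and annotation are not given in the sources used here. Reads and gene lengths were recovered from the steps of the values and came out whole for 20838 of 20838 genes above 0 (relative tolerance 2e-08). With 1 library per group no test was run, and a fold of 1.5 with at least 1 UQRPKM in both libraries was used as a limit. Counting intervals (95%, Clopper-Pearson) were computed with Python 3.11.15 and scipy 1.17.1, after the steps were tested on simulated data. Genes were matched by symbol, gene ID or older symbol. ABHD5 primer sequences were taken from the study's supplementary list of primers.

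The genes, the 6 pathway lists and the 9 cell type marker lists were chosen with earlier results of these data known. Named genes are the 9 genes of interest, pathway genes past the limit in a comparison with at least 20 UQRPKM in one of its libraries, the 2 highest genes of each marker list, and the 3 genes with the pattern most like each gene of interest past the limit. The highest marker genes not named above were RETSAT, PECAM1, CLDN5, C1QB, NKG7, CD2, COL3A1, DCN, ACTA2 and TAGLN. Alternatives were other minimums, folds, a pseudocount and 5 other scalings.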

Additional observations from a re-analysis of the deposited data

How the results depend on the processing

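The count of lipolysis genes past 1.5-fold in CM versus IM, 1, was 0 at a fold of 2, and ABHD5 was past the limit under each other alternative run. In CMT versus CM the count of 0 became 1, ABHD5, under scaling by total UQRPKM, recovered reads or adipocyte markers. In CMT versus IM the count of 1 became 2 with no minimum, through ADRB3, and 0 at a fold of 2, when the interval bound had to pass the limit, and under each of the 5 other scalings. For the pathway lists the count in CM versus IM, 10, became 5 with at least 10 UQRPKM, 4 at a fold of 2, 3 by the interval bound and 2 with at least 100 UQRPKM, a minimum chosen after seeing the data. In CMT versus CM the count of 15 became 8 with at least 10 UQRPKM and 6 at a fold of 2, by the interval bound or with at least 100 UQRPKM. In CMT versus IM the count of 12 became 6 at a fold of 2, 4 by the interval bound, 7 under scaling by adipocyte markers and 2 with at least 100 UQRPKM. The share of all mRNA genes past the limit fell as well. At a fold of 2 it was 8.06% (CM against IM), 8.69% (CMT against CM) and 8.21% (CMT against IM). With at least 100 UQRPKM it was 4.12%, 5.24% and 6.55% in the same order. At these settings a lower count is therefore not particular to the pathway lists. No such share is given here for at least 10 UQRPKM or for the interval bound. Apart from the settings that by construction count fewer genes, the cause was not tested. Of 132 log2 ratios of single lipolysis genes under the alternatives, 122 kept their sign, and the other 10 belonged to ADRB1 or PDE3B. By size, 47 of the 132 fell outside the counting interval of the ratio as reported, and 85 stayed inside it. Scaling by adipocyte markers moved the median log2 ratio of all mRNA genes to 0.28 for CMT against CM and 0.19 for CMT against IM.

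No paired analysis was possible because each group is 1 library, and for the same reason leaving out a library gives no value. Depth limits ADRB3, with at most 5 reads in a library, and the intervals do not cover differences between pigs.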
